A study of Mus musculus with 12 samples.

Results

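The genes described here are 34 mouse genes of the hypoxia response and of glycolysis. They were taken by symbol from a list, and all 34 were found among the 24619 genes of the deposited count table. They comprise 16 glycolytic enzymes, 5 genes of sugar and lactate transport and of the control of glycolysis, 4 subunits and prolyl hydroxylases of the hypoxia-inducible factors, and 9 other targets of those factors. RNA was sequenced from primary mouse cells labelled as cardiac fibroblasts, the cells that make the collagen matrix of the heart. Grown with 10% serum, they had been starved for 12 h and had then spent 24 h in medium conditioned by adipocytes that carried a lentivirus. OE_CM stands for medium of adipocytes overexpressing the human microRNA hsa-miR-548ay, TGF_KD_CM for TGF-beta1 with medium of adipocytes carrying an inhibitor of that microRNA, TGF_VEC_CM for TGF-beta1 with medium of vector adipocytes, and VEC_CM for vector medium without TGF-beta1. Each group had 3 libraries. The sources used here do not give the strain, age or sex of the mice, nor whether the libraries of a group came from separate cultures. The p-values therefore rest on a spread between libraries that may be no more than technical. The treatment labels of OE_CM and TGF_KD_CM replicates 2 and 3 carry other microRNA numbers (miR-549ay and miR-550ay), and the groups follow the sample titles. VEC_CM and OE_CM belong to one part of the study and both TGF-beta1 groups to another; the effect of TGF-beta1 and any difference between the parts cannot be told apart.

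Hypoxia-inducible factors are transcription factors with an alpha subunit, encoded by Hif1a or Epas1, that is destroyed while oxygen is present. Prolyl hydroxylases, encoded by the Egln genes, mark the alpha subunit for destruction, so that the factor is controlled mainly as protein and its messenger RNA says little about its activity. When stable, the factor binds a short core motif near genes for glucose uptake, glycolytic enzymes, blood vessel growth, mitophagy and collagen hydroxylation. Glycolysis turns glucose into pyruvate and, through lactate dehydrogenase, lactate, and fibroblasts activated by TGF-beta are known to use more glucose by this route.

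Promoters of 6 genes are shown, chosen after their values were seen, because the results turn on these genes: Hk2, Slc2a1 and Egln1 rose in OE_CM against VEC_CM, and Adm, Eno2 and Pfkm fell. Each sequence is the window of 250 bases before the annotated start in RefSeq (GRCm38.p6), 5′ to 3′ on the strand of the gene, and capitals mark the core motif of the hypoxia-inducible factors, searched as ACGTG and as GCGTG on both strands (CACGT and CACGC on the strand shown). Matches of the same motif on both strands, as in CACGTG, were each counted.
Hk2, chr6:82774455-82774704, minus strand: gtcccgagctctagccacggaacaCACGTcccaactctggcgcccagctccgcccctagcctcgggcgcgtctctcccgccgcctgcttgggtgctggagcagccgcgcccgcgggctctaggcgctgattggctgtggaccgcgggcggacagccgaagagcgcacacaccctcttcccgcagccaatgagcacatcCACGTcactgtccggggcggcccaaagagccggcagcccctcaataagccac
Slc2a1, chr4:119108495-119108744, plus strand: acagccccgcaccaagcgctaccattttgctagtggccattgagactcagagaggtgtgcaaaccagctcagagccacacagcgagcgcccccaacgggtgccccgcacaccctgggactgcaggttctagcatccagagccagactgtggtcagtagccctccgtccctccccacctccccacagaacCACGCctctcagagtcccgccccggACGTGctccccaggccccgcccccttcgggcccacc
Egln1, chr8:124949255-124949504, minus strand: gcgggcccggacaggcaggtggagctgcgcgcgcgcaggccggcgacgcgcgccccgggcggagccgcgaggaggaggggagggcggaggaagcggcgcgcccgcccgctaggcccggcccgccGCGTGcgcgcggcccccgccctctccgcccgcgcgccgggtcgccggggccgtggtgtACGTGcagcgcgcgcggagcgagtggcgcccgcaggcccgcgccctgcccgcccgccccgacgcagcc
Adm, chr7:110627407-110627656, plus strand: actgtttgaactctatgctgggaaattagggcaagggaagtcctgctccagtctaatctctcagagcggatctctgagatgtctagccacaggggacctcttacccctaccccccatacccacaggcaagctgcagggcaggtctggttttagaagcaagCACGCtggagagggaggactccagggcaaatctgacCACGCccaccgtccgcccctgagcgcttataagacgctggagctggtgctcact
Eno2, chr6:124769674-124769923, minus strand: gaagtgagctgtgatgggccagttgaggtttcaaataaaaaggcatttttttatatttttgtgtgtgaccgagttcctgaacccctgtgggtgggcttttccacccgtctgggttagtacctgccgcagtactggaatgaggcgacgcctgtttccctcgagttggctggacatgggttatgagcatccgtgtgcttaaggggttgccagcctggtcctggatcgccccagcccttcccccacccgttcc
Pfkm, chr15:98092339-98092588, plus strand: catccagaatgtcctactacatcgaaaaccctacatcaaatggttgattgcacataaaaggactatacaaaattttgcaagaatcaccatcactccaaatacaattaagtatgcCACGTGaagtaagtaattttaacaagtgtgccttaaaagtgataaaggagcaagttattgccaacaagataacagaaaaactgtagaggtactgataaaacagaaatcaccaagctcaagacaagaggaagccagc

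The Hk2 window held 2 matches of ACGTG, 226 and 52 bases before the start, and the Slc2a1 and Egln1 windows held 1 match of each motif. The Adm window held 2 matches of GCGTG and the Eno2 window held neither. The Pfkm window held CACGTG, counted as 2 matches of ACGTG, so that motif stood before genes that rose and before a gene that fell. Of the 3 other Pfkm windows, 1 held both motifs, 1 held GCGTG and 1 held neither, and both Aldoc windows held 1 match of GCGTG. Of the 34 genes, 31 had promoter windows, 47 in all; Epas1, Ndrg1 and Bnip3l had none. Of these windows 76.6% held either motif. The share was 38.6% of all 32851 promoter windows and 52.6% of the 14272 windows of genes tested here. Some windows of a gene, as in Aldoa, Eno1 and Pfkm, overlap and hold the same site. Counted by gene, 90.3% of the 31 members held either motif, beside 58.5% of genes tested and 41.5% of all. The list includes targets of these factors, so its higher share is no independent finding. ACGTG was found in 44.7% of the members' windows, 20.7% of those of genes tested and 16.6% of all, and GCGTG in 53.2%, 41.6% and 28.2%. The median GC content was 60.4% in the members' windows, 52.4% in all and 58.8% for genes tested, and its part in these shares was not tested. At 37 of the 47 windows the bases after the annotated start were found near the beginning of a GENCODE transcript of the gene. That transcript need not start at the same base. Of the Vegfa windows, the one before the outer start held neither motif and the one before the inner start held 1 match of each. A match describes letters in a window, and its absence says nothing about sites elsewhere.

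Library totals lay between 33379207 and 37226153 counts, and 3 counts, the floor used here, were no more than 0.0939 CPM, a count corrected for library size with TMM factors. Fibroblast markers were mixed: Col1a2 averaged between 4377 and 4875 CPM and Pdgfra between 96.0 and 216 CPM in the 4 groups, while Dcn averaged between 0.119 and 0.146 CPM, Thy1 between 0.246 and 0.366 CPM, and Lum lay below the floor; 8 of the 9 listed markers were in the table. Sums of markers of other cell types moved with the groups. The summed CPM of 7 adipocyte markers was carried by Fabp4 and ran from 97.5 to 102 in OE_CM, 152 to 163 in TGF_KD_CM, 186 to 198 in TGF_VEC_CM and 265 to 279 in VEC_CM, with Adipoq and Plin1 under 1 CPM and Lep at 0 in all libraries but 1. Cidec, another adipocyte marker, ran the other way within each medium comparison, at 13.2 ± 0.994 CPM in OE_CM and 7.92 ± 0.716 in VEC_CM, and at 17.0 ± 1.45 in TGF_KD_CM and 11.2 ± 0.403 in TGF_VEC_CM. The sum of 7 leukocyte markers ran from 23.4 to 38.3 in OE_CM, 31.8 to 33.9 in TGF_KD_CM, 35.3 to 38.7 in TGF_VEC_CM and 46.0 to 48.4 in VEC_CM. The sum of 8 cardiomyocyte markers, mostly Tnnt2, ran from 165 to 169 in OE_CM, 99.4 to 105 in TGF_KD_CM, 107 to 118 in TGF_VEC_CM and 72.3 to 77.6 in VEC_CM, with Myh6, Tnni3, Actc1 and Myl2 at or below the floor on average. Smooth muscle and pericyte markers summed to between 897 and 903 in OE_CM, 637 and 650 in TGF_KD_CM, 820 and 845 in TGF_VEC_CM and 598 and 618 in VEC_CM, mostly Cspg4, with Acta2 and Tagln under 1 CPM, while Des averaged 23.9 ± 2.08 CPM in OE_CM and 40.7 ± 2.41 in VEC_CM. Endothelial markers (6 of 7 in the table) summed to between 0.508 and 0.595 in OE_CM, 0.759 and 1.49 in TGF_KD_CM, 1.17 and 1.80 in TGF_VEC_CM and 0.547 and 0.710 in VEC_CM, and both that were tested rose in TGF_VEC_CM. Their part in the results below was not tested, and in bulk RNA fewer cells of a type and less RNA per cell cannot be told apart.

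Of the 34 genes, 33 were expressed highly enough to be tested, and Epas1 was not. In OE_CM against VEC_CM, 13 rose and 10 fell at an edgeR adjusted p below 0.05, against a background of 28.4% of all 14400 tested genes that rose and 25.7% that fell, or 54% in either direction. In TGF_KD_CM against TGF_VEC_CM, 6 rose and 18 fell (background 23% and 20.2%, together 43.3%). In TGF_VEC_CM against VEC_CM, 23 rose and 5 fell (background 28.9% and 29.4%, together 58.3%). The share of tested members that changed was 69.7%, 72.7% and 84.8% in these comparisons. The median log2 fold change of the members was 0.058, -0.12 and 0.25 in these comparisons, beside -0.0081, -0.0003 and 0.0041 over all genes tested. Taken without sign, the median was 0.159, 0.2 and 0.299 for the members, beside 0.228, 0.172 and 0.24 over all genes tested. In OE_CM the members' changes were thus smaller than those of a typical gene, though a larger share passed. The biological coefficient of variation common to all genes was 0.0341, and many of the shifts that passed were small. In a test against a change of 1.2-fold, 4 members rose and 5 fell in OE_CM (background 9.76% and 11.6%, together 21.4%), 1 rose and 2 fell in TGF_KD_CM (5.53% and 4.93%, together 10.5%), and 14 rose and 2 fell in TGF_VEC_CM (14% and 10.8%, together 24.8%). Those past this test in OE_CM were Hk2, Slc2a1, Egln1 and Vegfa above VEC_CM and Pfkm, Aldoc, Eno2, Ndrg1 and Adm below it. In TGF_KD_CM they were Kdm3a above TGF_VEC_CM and Pfkm and Adm below it.

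The enzymes and the other members split as follows, to be read against 54%, 43.3% and 58.3% of all genes called in OE_CM, TGF_KD_CM and TGF_VEC_CM. Among 16 glycolytic enzymes, 6 rose and 5 fell in OE_CM, 2 rose and 8 fell in TGF_KD_CM, and 11 rose and 2 fell in TGF_VEC_CM against VEC_CM, which is 68.8%, 62.5% and 81.2% of them. Without sign, the median log2 fold change of the enzymes was 0.0772, 0.0969 and 0.2248, beside 0.2284, 0.172 and 0.2402 over all genes. In the test against 1.2-fold, 25%, 6.25% and 43.8% of the enzymes passed, beside 21.4%, 10.5% and 24.8% of all genes. The 5 genes of transport and control had 2 rises and 1 fall in OE_CM, 5 falls in TGF_KD_CM and 5 rises in TGF_VEC_CM. Of the 3 tested HIF subunits and prolyl hydroxylases, 2 rose and 1 fell in OE_CM, 1 rose and 2 fell in TGF_KD_CM, and 2 rose in TGF_VEC_CM. The 9 other targets had 3 rises and 3 falls in OE_CM, 3 and 3 in TGF_KD_CM, and 5 and 3 in TGF_VEC_CM. TGF_VEC_CM against VEC_CM shares its libraries with both other comparisons, so its values are not independent of theirs.

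**Figure D1:**
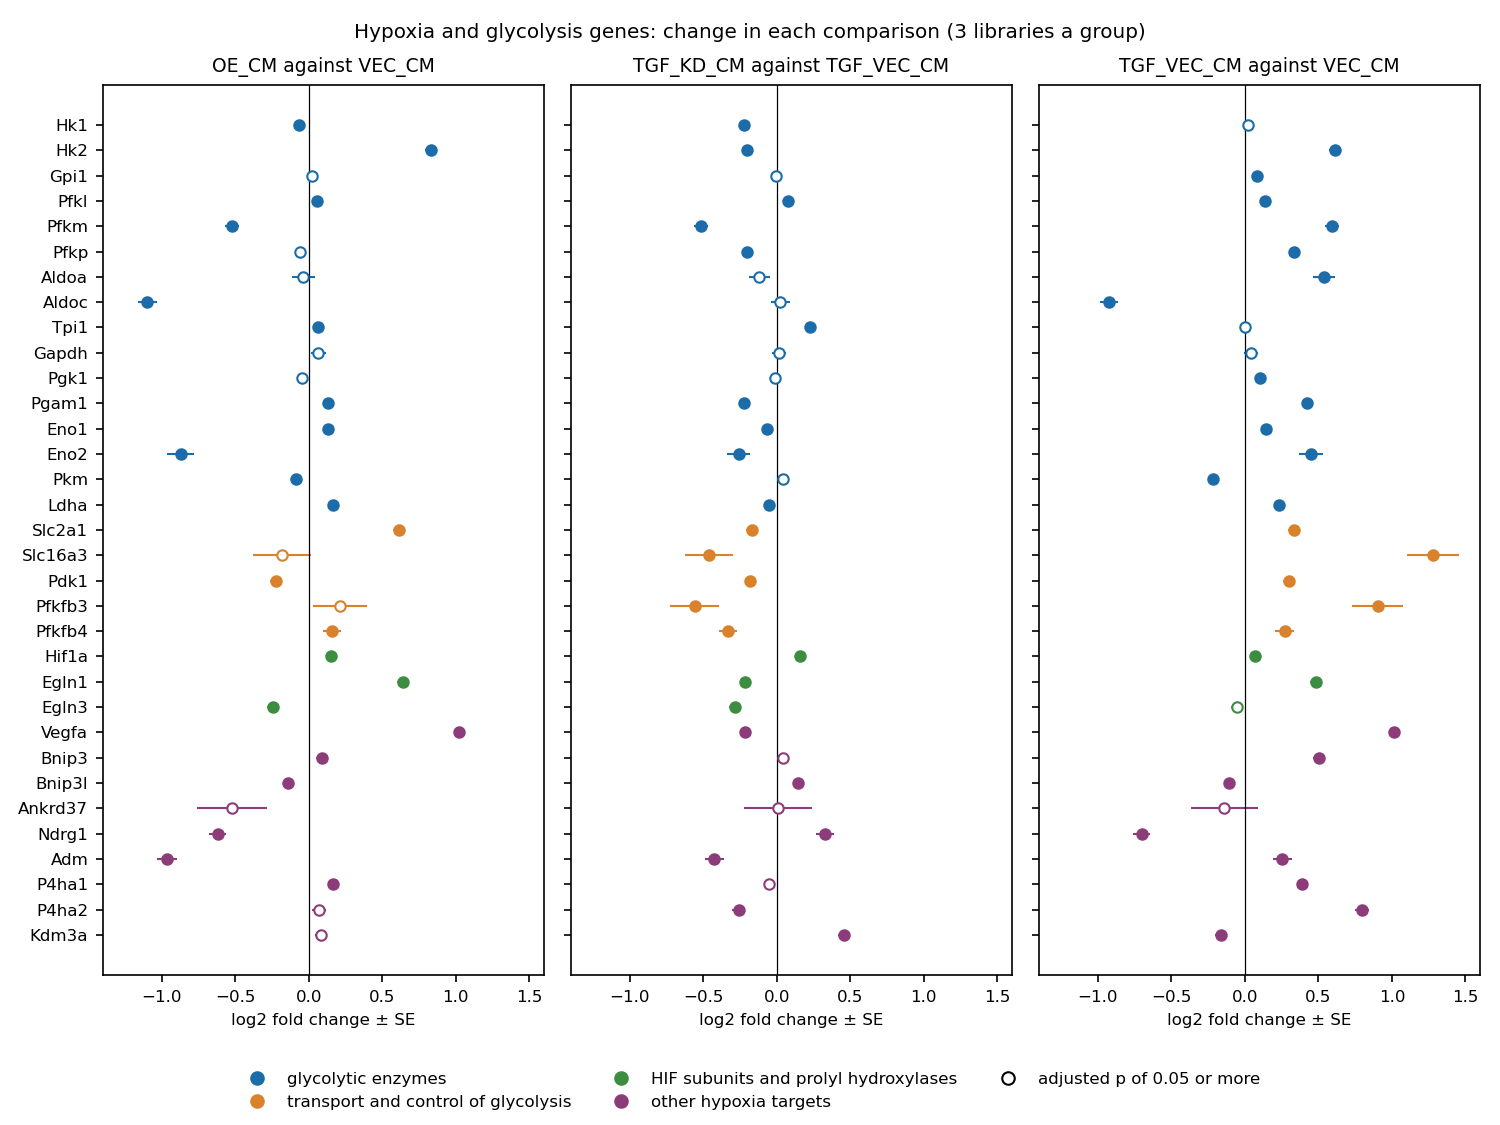
Log2 fold change (x axis, point, with its standard error as a bar) of the 33 tested genes (y axis) in the 3 comparisons, colored by role; open points did not pass an adjusted p of 0.05. Vegfa, Hk2, Egln1 and Slc2a1 lie far right of 0 in OE_CM, Aldoc, Adm, Eno2 and Ndrg1 far left, and most points lie right of 0 in TGF_VEC_CM.

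The scaling of the libraries bears on the OE_CM counts, as does the choice of test. With upper-quartile factors in place of TMM, 7 members rose and 14 fell in OE_CM, and the split over all genes was 2798 higher and 5059 lower, beside 4083 and 3695 in the main test. With DESeq2 size factors 11 members rose and 10 fell, and the split was 4002 and 3767. With limma on log2(FPKM + 1), where model and filter differ too, 7 rose and 13 fell, and the split over the genes tested was 2630 and 3953. Hk2, Slc2a1, Egln1 and Vegfa rose, and Pfkm, Aldoc, Eno2, Ndrg1 and Adm fell, under each of these settings.

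The enzymes differed widely in level per transcript length (FPKM, a count divided by the library total and by the length of the gene). Eno1, the main enolase, was at 663 ± 14.2 FPKM in OE_CM, 677 ± 10.3 in TGF_KD_CM, 725 ± 6.46 in TGF_VEC_CM and 637 ± 2.80 in VEC_CM (SD, n = 3). Tpi1 and Pgk1, the triose phosphate isomerase and the kinase that yields the first ATP of the pathway, lay in the same range, with group means between 587 and 727 FPKM. Gapdh, the dehydrogenase between them in the pathway, was at only 38.1 ± 2.91 FPKM in OE_CM, 40.2 ± 3.29 in TGF_KD_CM, 40.7 ± 2.00 in TGF_VEC_CM and 38.4 ± 0.861 in VEC_CM. Aldoa, the main aldolase of most tissues, was at 8.26 ± 0.507, 12.03 ± 1.13, 13.4 ± 1.14 and 8.93 ± 0.235 FPKM in the same order. Of the stretches of 50 bases in the longest Gapdh transcript, 82.5% also occur in transcripts of other genes, 213 of those 222 genes being pseudogenes; the share was 72.2% for Eno1, 68% for Pgk1, 41.5% for Pgam1, 34.4% for Pkm and 13.5% for Aldoa. How reads that match several genes were counted is not given in the sources used here. Levels of these genes are uncertain for that reason. The shared share of Aldoa was the smallest of those named, and the cause of its low level was not tested. The lengths behind the FPKM of Pkm and Ldha, 7687 and 5342 bases, exceed their longest coding transcripts in GENCODE (2432 and 1815 bases), which lowers their FPKM relative to other enzymes. Summed over the 16 enzymes, FPKM was 3109 ± 62.1 in OE_CM, 3424 ± 27.6 in TGF_KD_CM, 3489.9 ± 16.9 in TGF_VEC_CM and 3190.1 ± 42.6 in VEC_CM. FPKM carries no TMM factors. These ran from 0.9469 to 0.9575 in OE_CM, 1.0051 to 1.0161 in TGF_KD_CM, 1.031 to 1.0398 in TGF_VEC_CM and 1.0017 to 1.0065 in VEC_CM. The order of the sums within each medium comparison therefore depends on the scaling, and it was not tested.

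**Figure D2:**
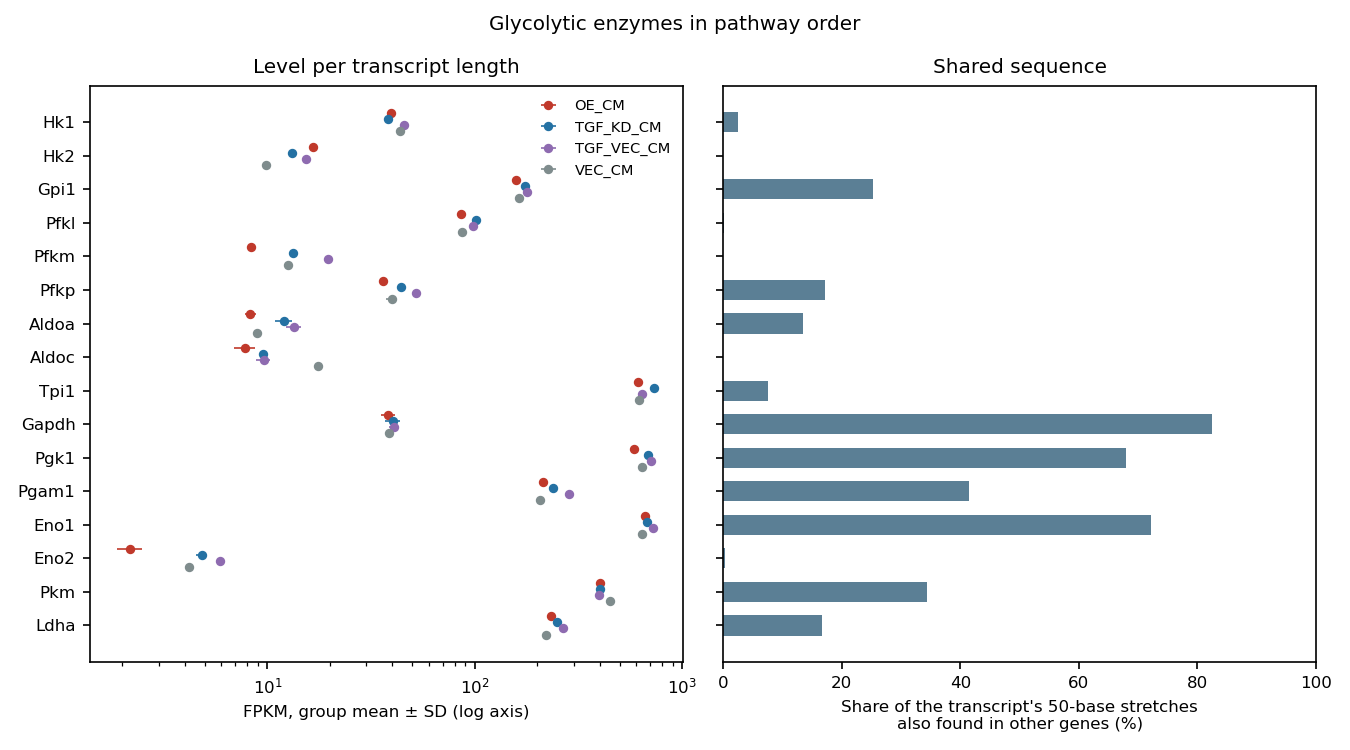
Left, mean FPKM with SD over 3 libraries (log x axis) of the 16 enzymes in pathway order (y axis) in the 4 groups; right, share (%) of each transcript's 50-base stretches that also occur in other genes. Gapdh and Aldoa lie more than 10-fold below Eno1, Pgk1 and Tpi1, and Gapdh has the largest shared share, 82.5%.

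Hif1a, the oxygen-regulated subunit, was abundant and changed little. It measured 334, 329 and 328 CPM in OE_CM, 345, 346 and 353 in TGF_KD_CM, 317, 304 and 315 in TGF_VEC_CM, and 287, 303 and 301 in VEC_CM. Every OE_CM library was above every VEC_CM library, and every TGF_KD_CM library above every TGF_VEC_CM library, by small margins. Its log2 fold change was 0.15 ± 0.026 in OE_CM against VEC_CM (edgeR adjusted p = 5.12e-07), 0.16 ± 0.025 in TGF_KD_CM against TGF_VEC_CM and 0.070 ± 0.026 in TGF_VEC_CM against VEC_CM (adjusted p = 0.0154). The last call was lost without VEC_CM replicate 1 (adjusted p = 0.0707) or without the filter on low counts (adjusted p = 0.134), and the OE_CM value was 0.067 with upper-quartile factors. Epas1, the second alpha subunit, had between 0 and 6 reads in any library and at most 0.179 CPM, near the floor; it did not pass the filter on low counts and was not compared.

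Both prolyl hydroxylases are targets of the factor they restrain, and they moved apart in OE_CM. Egln1, the main oxygen sensor of most cells, measured 128, 124 and 131 CPM in OE_CM, 96.4, 102 and 96.5 in TGF_KD_CM, 110.5, 113 and 119 in TGF_VEC_CM, and 84.7, 78.0 and 82.6 in VEC_CM. It was highest in OE_CM, next in TGF_VEC_CM and lowest in VEC_CM, and the groups of no comparison overlapped. Its fold was 1.56 in OE_CM (log2 0.64 ± 0.036, edgeR adjusted p = 1.11e-24) and 1.40 in TGF_VEC_CM, and it was 1.16 times lower in TGF_KD_CM than in TGF_VEC_CM (log2 -0.22 ± 0.035). Egln3, the strongly inducible hydroxylase, measured 74.8, 72.7 and 79.2 CPM in OE_CM, 69.8, 72.5 and 70.2 in TGF_KD_CM, 81.9, 88.9 and 88.0 in TGF_VEC_CM, and 88.6, 88.3 and 91.8 in VEC_CM. OE_CM and TGF_KD_CM lay below their vector groups without overlap, while TGF_VEC_CM and VEC_CM overlapped. Egln3 fell by 0.25 ± 0.039 on the log2 scale in OE_CM and by 0.28 ± 0.039 in TGF_KD_CM, and its value in TGF_VEC_CM against VEC_CM was -0.054 ± 0.038 (adjusted p = 0.23).

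Transcripts of the glucose transporter Slc2a1 and of the hexokinase Hk2 rose in OE_CM. Slc2a1, the glucose transporter GLUT1, measured 89.0, 82.7 and 90.0 CPM in OE_CM, 66.6, 61.1 and 64.0 in TGF_KD_CM, 70.9, 70.8 and 74.1 in TGF_VEC_CM, and 57.7, 54.6 and 58.7 in VEC_CM. All OE_CM libraries were above all others, and VEC_CM was lowest. It rose 1.53-fold in OE_CM (log2 0.61 ± 0.042, edgeR adjusted p = 1.2e-20) and 1.26-fold in TGF_VEC_CM, and fell by 0.17 ± 0.041 on the log2 scale in TGF_KD_CM. Hk2, the inducible hexokinase, which traps glucose in the cell, measured 105, 103 and 105 CPM in OE_CM, 79.4, 77.1 and 77.0 in TGF_KD_CM, 90.9, 84.3 and 93.0 in TGF_VEC_CM, and 57.7, 58.7 and 59.2 in VEC_CM. The order of the groups was that of Slc2a1, with no overlap in any comparison. Hk2 rose 1.78-fold in OE_CM (log2 0.83 ± 0.038, adjusted p = 4.31e-29) and 1.53-fold in TGF_VEC_CM (log2 0.61 ± 0.038), and was 1.15 times lower in TGF_KD_CM than in TGF_VEC_CM (log2 -0.20 ± 0.037). Hk1, the hexokinase of most resting cells, measured 223, 225 and 224 CPM in OE_CM, 201, 204 and 205 in TGF_KD_CM, 240.0, 237 and 237 in TGF_VEC_CM, and 239, 236 and 228 in VEC_CM. TGF_KD_CM lay below all other libraries, and TGF_VEC_CM overlapped VEC_CM. It fell by 0.23 ± 0.027 in TGF_KD_CM on the log2 scale. Its small fall in OE_CM (-0.066 ± 0.027, adjusted p = 0.0302) was lost without any 1 of OE_CM replicates 1 to 3 or VEC_CM replicates 1 and 2 (adjusted p from 0.0514 to 0.121), and was -0.15 with upper-quartile factors.

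Transcripts that tune the committed step rose in TGF_VEC_CM against VEC_CM. Pfkfb3, which makes the activator of phosphofructokinase, measured 3.53, 2.18 and 3.005 CPM in OE_CM, 2.60, 3.5001 and 3.46 in TGF_KD_CM, 4.86, 4.36 and 4.89 in TGF_VEC_CM, and 2.50, 2.51 and 2.52 in VEC_CM. Pfkfb4, its paralog, measured 26.3, 24.7 and 29.7 CPM in OE_CM, 21.9, 24.5 and 22.9 in TGF_KD_CM, 28.7, 30.04 and 28.5 in TGF_VEC_CM, and 24.5, 23.96 and 23.8 in VEC_CM. Every TGF_VEC_CM library was above every library of TGF_KD_CM and of VEC_CM in both genes, while OE_CM and VEC_CM overlapped in Pfkfb3. Pfkfb3 rose by 0.90 ± 0.17 on the log2 scale in TGF_VEC_CM (edgeR adjusted p = 8.07e-06) and fell by 0.56 ± 0.17 in TGF_KD_CM. Pfkfb4 rose by 0.27 ± 0.063 in TGF_VEC_CM and fell by 0.33 ± 0.063 in TGF_KD_CM. In OE_CM its log2 fold change ran from 0.0675 to 0.2184 over all settings. Its OE_CM rise (0.16 ± 0.064, adjusted p = 0.0305) was lost without OE_CM replicate 3 (log2 0.088, adjusted p = 0.309) or VEC_CM replicate 2 or 3 (adjusted p = 0.0672 and 0.0669).

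Slc16a3, the lactate exporter MCT4, measured 1.61, 2.66 and 2.54 CPM in OE_CM, 3.80, 5.48 and 4.32 in TGF_KD_CM, 5.84, 6.55 and 6.33 in TGF_VEC_CM, and 2.04, 2.16 and 3.502 in VEC_CM. TGF_VEC_CM was above the other groups without overlap, and OE_CM overlapped VEC_CM. In the edgeR fit it had the largest rise of all members in TGF_VEC_CM, 2.43-fold (log2 1.28 ± 0.18, edgeR adjusted p = 9.99e-09). With limma on log2(FPKM + 1) its value was 0.70, below the 1.04 of Vegfa. Slc16a3 averaged only 0.701 FPKM in VEC_CM and 1.76 in TGF_VEC_CM, so adding 1 lowers its value. Over all settings its value ran from 0.70 to 1.58. The fall in TGF_KD_CM (-0.46 ± 0.17, adjusted p = 0.0201) was lost without TGF_KD_CM replicate 1 or 3 or TGF_VEC_CM replicate 2 (adjusted p from 0.0652 to 0.117). Pdk1, the kinase that keeps pyruvate out of the mitochondria, averaged 59.1 ± 1.91 CPM in OE_CM, 74.7 ± 2.56 in TGF_KD_CM, 84.7 ± 2.05 in TGF_VEC_CM and 68.8 ± 1.25 in VEC_CM. It fell by 0.22 ± 0.04 in OE_CM and by 0.18 ± 0.039 in TGF_KD_CM, and rose by 0.30 ± 0.039 in TGF_VEC_CM, all on the log2 scale.

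**Figure D3:**
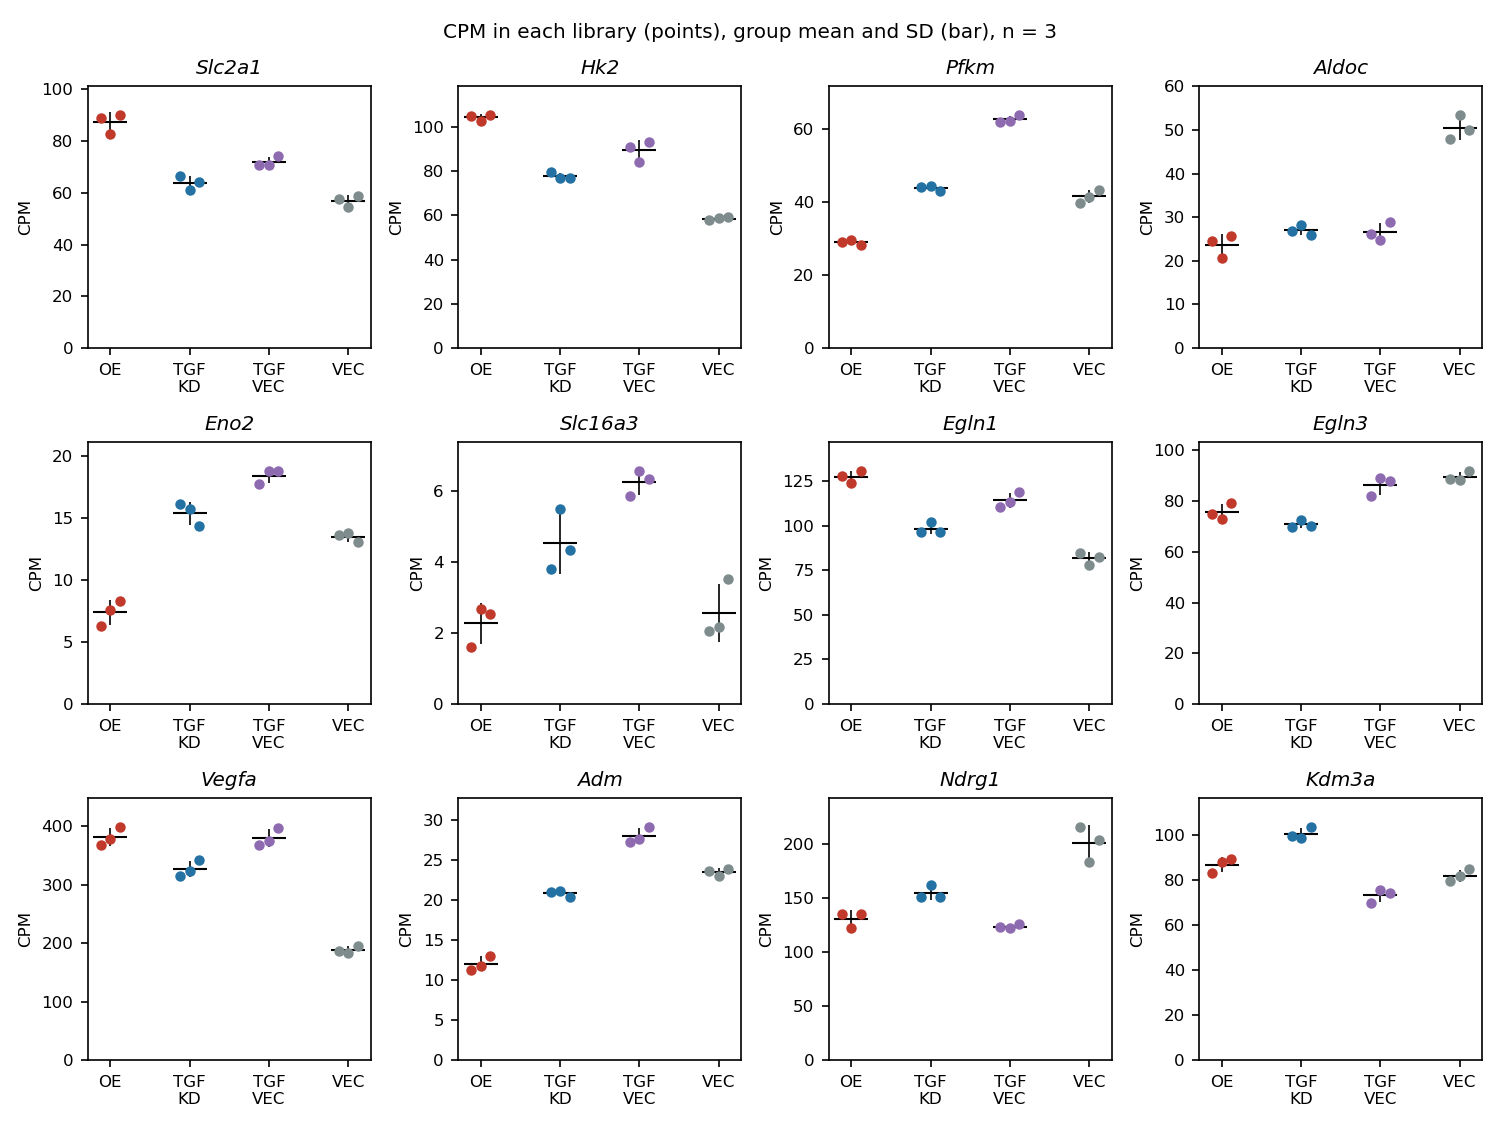
CPM (y axis, from 0) in each library (points) of 12 members, with the group mean (line) and SD (bar), n = 3, for OE_CM, TGF_KD_CM, TGF_VEC_CM and VEC_CM from left to right. Hk2 and Slc2a1 are highest in OE_CM, Pfkm and Slc16a3 in TGF_VEC_CM, and Aldoc and Ndrg1 in VEC_CM.

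Of the phosphofructokinases, which catalyse the committed step, the muscle form moved most. Pfkm measured 29.1, 29.5 and 28.2 CPM in OE_CM, 44.1, 44.3 and 43.1 in TGF_KD_CM, 62.0, 62.2 and 63.8 in TGF_VEC_CM, and 39.8, 41.4 and 43.4 in VEC_CM. TGF_VEC_CM stood above and OE_CM below all other libraries. Pfkm fell by 0.52 ± 0.05 on the log2 scale in OE_CM (edgeR adjusted p = 3.94e-14) and by 0.52 ± 0.046 in TGF_KD_CM, and rose 1.51-fold in TGF_VEC_CM (log2 0.59 ± 0.047). Pfkl, the liver form and the most abundant of them, measured 361, 361 and 375 CPM in OE_CM, 402, 413 and 404 in TGF_KD_CM, 378, 389 and 391 in TGF_VEC_CM, and 351, 355 and 349 in VEC_CM. Pfkp, the platelet form, measured 174, 167 and 169.6 CPM in OE_CM, 192, 196 and 196 in TGF_KD_CM, 225, 226 and 221 in TGF_VEC_CM, and 187, 167 and 178 in VEC_CM. Pfkl was lowest in VEC_CM and highest in TGF_KD_CM, Pfkp was highest in TGF_VEC_CM, and OE_CM overlapped VEC_CM in Pfkp only. Both rose in TGF_VEC_CM, by 0.14 ± 0.025 and 0.34 ± 0.030, and Pfkp fell by 0.2 ± 0.029 in TGF_KD_CM. The OE_CM rise of Pfkl (0.058 ± 0.025, adjusted p = 0.0442) was lost without any 1 of 11 libraries, the exception being OE_CM replicate 2 (adjusted p from 0.0504 to 0.202), and its direction turned with upper-quartile factors (-0.029). Its TGF_KD_CM rise (0.074 ± 0.025) was lost without TGF_KD_CM replicate 2 or 3 or TGF_VEC_CM replicate 1 or 2 (adjusted p from 0.0509 to 0.193) and with upper-quartile factors (adjusted p = 0.0852). Pfkp in OE_CM (-0.061 ± 0.030, adjusted p = 0.0797) passed without OE_CM replicate 1 (adjusted p = 0.0412) or VEC_CM replicate 2 (adjusted p = 0.00583).

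The aldolases cleave the sugar into trioses. Aldoc, the brain form, measured 24.4, 20.7 and 25.6 CPM in OE_CM, 26.8, 28.3 and 25.9 in TGF_KD_CM, 26.2, 24.7 and 28.9 in TGF_VEC_CM, and 47.8, 53.4 and 50.02 in VEC_CM. The VEC_CM libraries were above all 9 others, and TGF_VEC_CM overlapped both OE_CM and TGF_KD_CM. Aldoc was 2.14 times lower in OE_CM than in VEC_CM (log2 -1.10 ± 0.063, edgeR adjusted p = 2.83e-22), the largest fall of any member there, and 1.90 times lower in TGF_VEC_CM. In TGF_KD_CM against TGF_VEC_CM its value was 0.022 ± 0.065 (adjusted p = 0.81). Aldoa measured 16.0002, 17.1 and 14.96 CPM in OE_CM, 21.1, 24.4 and 20.4 in TGF_KD_CM, 25.8, 21.6 and 24.3 in TGF_VEC_CM, and 16.5, 16.8 and 15.95 in VEC_CM. Every library with TGF-beta1 was above every OE_CM and VEC_CM library, and within each of these pairs of groups the values overlapped. It rose 1.45-fold in TGF_VEC_CM and did not pass in OE_CM (-0.035 ± 0.077) or TGF_KD_CM (-0.12 ± 0.072, adjusted p = 0.179), where it passed without TGF_KD_CM replicate 2 (-0.22, adjusted p = 0.0225) or TGF_VEC_CM replicate 2 (-0.20, adjusted p = 0.033).

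The enolases act near the end of the pathway. Eno2, the neuronal form, measured 6.32, 7.53 and 8.29 CPM in OE_CM, 16.1, 15.7 and 14.3 in TGF_KD_CM, 17.7, 18.8 and 18.8 in TGF_VEC_CM, and 13.6, 13.7 and 13.02 in VEC_CM. It was lowest in OE_CM and highest in TGF_VEC_CM, with no overlap in any comparison. Eno2 was 1.83 times lower in OE_CM than in VEC_CM (log2 -0.87 ± 0.091, edgeR adjusted p = 6.81e-13) and 1.197 times lower in TGF_KD_CM, and rose 1.37-fold in TGF_VEC_CM. Eno1 measured 1407, 1370.4 and 1412 CPM in OE_CM, 1314, 1368 and 1347 in TGF_KD_CM, 1398, 1400.1 and 1421 in TGF_VEC_CM, and 1264, 1277 and 1279.9 in VEC_CM. VEC_CM was lowest, and OE_CM overlapped TGF_VEC_CM. Its shifts were small: 0.13 ± 0.021 in OE_CM, which was 0.046 with upper-quartile factors (adjusted p = 0.0547), -0.066 ± 0.021 in TGF_KD_CM and 0.14 ± 0.021 in TGF_VEC_CM.

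Of the remaining enzymes, Tpi1 rose in TGF_KD_CM, and Pgam1 and Ldha rose in TGF_VEC_CM against VEC_CM. Tpi1 measured 955, 937 and 951 CPM in OE_CM, 1021, 1080.2 and 1069.6 in TGF_KD_CM, 911, 895 and 909 in TGF_VEC_CM, and 900.2, 902 and 917 in VEC_CM. TGF_KD_CM was above all other libraries, 1.17-fold over TGF_VEC_CM (log2 0.22 ± 0.022, edgeR adjusted p = 3.62e-13). In OE_CM its rise (0.065 ± 0.022, adjusted p = 0.0122) was lost without OE_CM replicate 1 or VEC_CM replicate 1 (adjusted p = 0.0706 and 0.0561) and turned to -0.022 with upper-quartile factors. Pgam1, the mutase after Pgk1, averaged 411 ± 9.61 CPM in OE_CM, 431 ± 11.98 in TGF_KD_CM, 502 ± 0.985 in TGF_VEC_CM and 374 ± 11.4 in VEC_CM. It rose 1.34-fold in TGF_VEC_CM and 1.10-fold in OE_CM, the second call being lost with upper-quartile factors (adjusted p = 0.115), and was 1.17 times lower in TGF_KD_CM. Ldha, which makes lactate, averaged 1305 ± 33.3 CPM in OE_CM, 1317 ± 12.8 in TGF_KD_CM, 1369 ± 13.9 in TGF_VEC_CM and 1166 ± 10.99 in VEC_CM. Its rise was 0.16 ± 0.022 in OE_CM (0.076 with upper-quartile factors) and 0.23 ± 0.022 in TGF_VEC_CM, and its fall was -0.056 ± 0.022 in TGF_KD_CM (adjusted p = 0.0312, or 0.132 without the filter on low counts).

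Pkm, the pyruvate kinase of most adult tissues, measured 3286, 3198 and 3199.5 CPM in OE_CM, 3012, 3052 and 3045 in TGF_KD_CM, 2956, 2909 and 2985 in TGF_VEC_CM, and 3411, 3379.8 and 3503 in VEC_CM. VEC_CM was above all other libraries. It fell by 0.088 ± 0.02 on the log2 scale in OE_CM (by 0.18 with upper-quartile factors) and by 0.22 ± 0.02 in TGF_VEC_CM, against the direction of most enzymes there, and did not pass in TGF_KD_CM (0.042 ± 0.020, adjusted p = 0.0854, or 0.0455 without the filter on low counts). Gapdh, used in many studies as a loading control, did not pass in any comparison (log2 0.065 ± 0.050 in OE_CM, 0.015 ± 0.049 in TGF_KD_CM and 0.041 ± 0.049 in TGF_VEC_CM). Pgk1 and Gpi1, the isomerase after hexokinase, rose by 0.10 ± 0.024 and 0.084 ± 0.023 in TGF_VEC_CM against VEC_CM. Neither passed in the main test of either medium. With upper-quartile factors both fell in OE_CM, Pgk1 by 0.13 and Gpi1 by 0.062. Pgk1 in OE_CM (-0.043 ± 0.024, adjusted p = 0.118) also passed without OE_CM replicate 1 (adjusted p = 0.0311) or VEC_CM replicate 2 (adjusted p = 0.0213).

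Vegfa, the growth factor of blood vessels, had the largest rise in OE_CM. It measured 368, 379 and 399 CPM in OE_CM, 316, 323 and 342 in TGF_KD_CM, 368, 376 and 398 in TGF_VEC_CM, and 187, 182 and 195 in VEC_CM. All 9 libraries of the other groups were above the VEC_CM libraries, and OE_CM overlapped TGF_VEC_CM. Vegfa rose 2.03-fold in OE_CM (log2 1.02 ± 0.033, edgeR adjusted p = 1.89e-22) and 2.02-fold in TGF_VEC_CM (log2 1.02 ± 0.033), and was 1.16 times lower in TGF_KD_CM than in TGF_VEC_CM. Adm, the precursor of the vessel-widening peptide adrenomedullin, went the other way in OE_CM. It measured 11.3, 11.8 and 13.1 CPM in OE_CM, 21.04, 21.1 and 20.4 in TGF_KD_CM, 27.3, 27.6 and 29.1 in TGF_VEC_CM, and 23.6, 23.0 and 23.9 in VEC_CM. The OE_CM libraries were below all others. Adm was 1.95 times lower in OE_CM than in VEC_CM (log2 -0.96 ± 0.071, adjusted p = 3.98e-19) and 1.34 times lower in TGF_KD_CM than in TGF_VEC_CM, and rose 1.19-fold in TGF_VEC_CM.

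Ndrg1, a stress-inducible gene long used as a marker of hypoxia, measured 135, 122 and 135 CPM in OE_CM, 151, 162 and 151 in TGF_KD_CM, 123, 122 and 125 in TGF_VEC_CM, and 215, 183 and 203 in VEC_CM. VEC_CM was highest and TGF_KD_CM lay above TGF_VEC_CM without overlap. Ndrg1 was 1.53 times lower in OE_CM (log2 -0.62 ± 0.059, edgeR adjusted p = 3.6e-06) and 1.63 times lower in TGF_VEC_CM than in VEC_CM, and rose 1.25-fold in TGF_KD_CM. Kdm3a, a histone demethylase that needs oxygen, measured 83.4, 88.4 and 89.4 CPM in OE_CM, 99.7, 98.7 and 104 in TGF_KD_CM, 70.0, 75.5 and 74.5 in TGF_VEC_CM, and 79.6, 81.9 and 84.9 in VEC_CM. TGF_KD_CM was above all other libraries and TGF_VEC_CM below them. It had the largest rise of any member in TGF_KD_CM, 1.37-fold (log2 0.46 ± 0.038, adjusted p = 2.17e-16), and fell by 0.16 ± 0.038 on the log2 scale in TGF_VEC_CM. In OE_CM its value was 0.083 ± 0.038 (adjusted p = 0.0602), which passed without OE_CM replicate 1 (adjusted p = 0.0262) or VEC_CM replicate 3 (adjusted p = 0.0228).

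Bnip3 and Bnip3l encode receptors for mitophagy, the removal of mitochondria. Bnip3 measured 86.2, 79.4 and 83.1 CPM in OE_CM, 110.5, 119 and 112 in TGF_KD_CM, 107, 114 and 109 in TGF_VEC_CM, and 81.2, 76.0 and 76.8 in VEC_CM. The TGF-beta1 groups overlapped each other and were above OE_CM and VEC_CM, which overlapped each other. Bnip3 rose 1.42-fold in TGF_VEC_CM (log2 0.50 ± 0.037, edgeR adjusted p = 7.12e-19). In OE_CM its log2 fold change ran from 0.0008 to 0.1198 over all settings. Its OE_CM rise (0.088 ± 0.038, adjusted p = 0.0465) was lost without any 1 of 10 libraries, the exceptions being OE_CM replicate 2 and VEC_CM replicate 1 (adjusted p from 0.0521 to 0.308). Bnip3l measured 125, 124 and 129.7 CPM in OE_CM, 139.5, 149 and 140.2 in TGF_KD_CM, 128, 129 and 130.5 in TGF_VEC_CM, and 139, 137 and 142 in VEC_CM. TGF_KD_CM overlapped VEC_CM, and both lay above OE_CM and TGF_VEC_CM. It fell by 0.14 ± 0.032 on the log2 scale in OE_CM (by 0.23 with upper-quartile factors) and by 0.11 ± 0.031 in TGF_VEC_CM (adjusted p = 0.108 with limma on log2(FPKM + 1)), and rose by 0.15 ± 0.031 in TGF_KD_CM. Of the 50-base stretches of their longest transcripts, 62.4% of Bnip3 and 23.4% of Bnip3l also occur in other genes, so their levels are uncertain.

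P4ha1 and P4ha2 encode the catalytic subunits of collagen prolyl hydroxylase, which lets collagen fold into a stable triple helix. P4ha2 measured 42.0, 37.8 and 42.3 CPM in OE_CM, 56.0, 58.0 and 54.5 in TGF_KD_CM, 66.7, 68.6 and 66.3 in TGF_VEC_CM, and 39.2, 37.3 and 39.6 in VEC_CM. The 3 TGF_VEC_CM libraries were highest and the TGF_KD_CM libraries next, while OE_CM overlapped VEC_CM. P4ha2 rose 1.74-fold in TGF_VEC_CM (log2 0.80 ± 0.047, edgeR adjusted p = 1.29e-23) and was 1.197 times lower in TGF_KD_CM than in TGF_VEC_CM. In OE_CM its value was 0.071 ± 0.049 (adjusted p = 0.225), which passed without OE_CM replicate 2 (adjusted p = 0.0463). P4ha1 measured 257, 269 and 263 CPM in OE_CM, 289, 304 and 297 in TGF_KD_CM, 297, 311 and 314 in TGF_VEC_CM, and 237, 235 and 232 in VEC_CM. VEC_CM was lowest and OE_CM next, and the TGF-beta1 groups overlapped each other. It rose 1.31-fold in TGF_VEC_CM and 1.12-fold in OE_CM, where the log2 fold change of 0.16 ± 0.027 was 0.076 with upper-quartile factors. In TGF_KD_CM its value was -0.051 ± 0.026 (adjusted p = 0.115), which passed with upper-quartile factors (adjusted p = 0.0137) and without any 1 of 6 libraries: replicates 1 and 3 of OE_CM and of VEC_CM, TGF_KD_CM replicate 2 and TGF_VEC_CM replicate 1 (adjusted p from 0.00896 to 0.0448). Ankrd37, a low-level target whose protein holds ankyrin repeats, averaged 1.59 ± 0.443 CPM in OE_CM and 2.27 ± 0.146 in VEC_CM. Its log2 value of -0.52 ± 0.24 did not pass (adjusted p = 0.0583) but did so with upper-quartile factors (adjusted p = 0.0265) and without OE_CM replicate 3 (-0.76, adjusted p = 0.0148) or TGF_KD_CM replicate 3 (adjusted p = 0.0459).

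Within families, the balance of members shifted between groups. Hk2 made up 29.5% ± 0.372 of the summed FPKM of Hk1 and Hk2 in OE_CM, 25.6% ± 0.499 in TGF_KD_CM, 25.3% ± 0.949 in TGF_VEC_CM and 18.4% ± 0.544 in VEC_CM (SD, n = 3). The Hk2 share was above VEC_CM in all 9 libraries of the other groups. Pfkm made up 6.39% ± 0.232 of the 3 phosphofructokinases in OE_CM, 8.44% ± 0.128 in TGF_KD_CM, 11.5% ± 0.146 in TGF_VEC_CM and 9.04% ± 0.432 in VEC_CM. Egln1 made up 59.1% ± 0.505 of Egln1 and Egln3 in OE_CM, 54.2% ± 0.261 in TGF_KD_CM, 53.1% ± 0.846 in TGF_VEC_CM and 43.8% ± 1.02 in VEC_CM. OE_CM had the highest and VEC_CM the lowest share of both Hk2 and Egln1. P4ha2 made up 21.3% ± 1.36 of P4ha1 and P4ha2 in OE_CM, 24.9% ± 0.524 in TGF_KD_CM, 27.7% ± 0.663 in TGF_VEC_CM and 22.4% ± 0.653 in VEC_CM. Bnip3 made up 61.8% ± 1.05 of Bnip3 and Bnip3l in OE_CM, 66.2% ± 0.0672 in TGF_KD_CM, 67.8% ± 0.712 in TGF_VEC_CM and 58.0% ± 0.9 in VEC_CM. These shares were not tested.

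**Figure D4:**
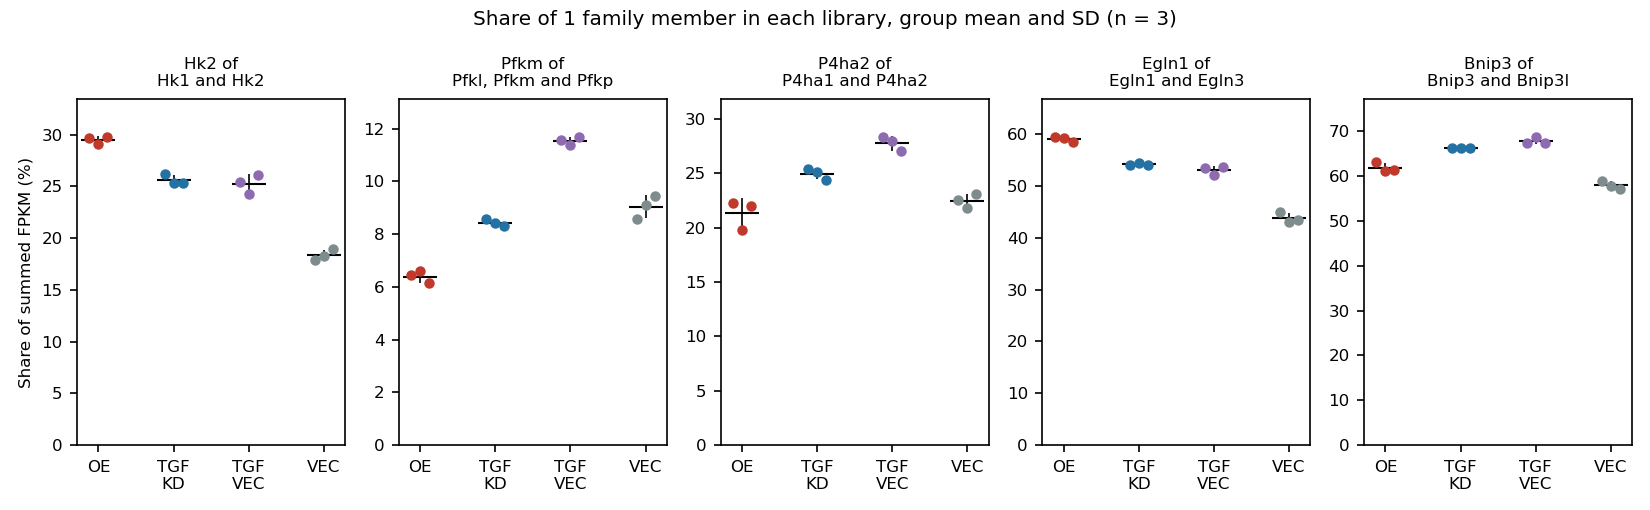
Share of 1 family member in the summed FPKM of its family (y axis, %, from 0) in each library (points), with group mean (line) and SD (bar), n = 3. The Hk2 and Egln1 shares are highest in OE_CM and lowest in VEC_CM, and the Pfkm and P4ha2 shares are, on average, highest in TGF_VEC_CM and lowest in OE_CM.

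The effects of both media can be set against each other because they share no library: OE_CM over VEC_CM, and TGF_KD_CM over TGF_VEC_CM. They differed for 21 of 33 members at an edgeR adjusted p below 0.05, 13 higher and 8 lower in OE_CM, against a background of 25.6% higher and 26.8% lower over all genes, together 52.5%. In a test against a difference of 1.2-fold, 7 were higher and 5 lower (background 13.5% and 14.9%, together 28.4%). Vegfa differed most, by 1.24 ± 0.046 on the log2 scale, followed among the positive differences by Hk2 (1.03 ± 0.054), Egln1 (0.86 ± 0.050), Slc2a1 (0.79 ± 0.059) and Pfkfb3 (0.77 ± 0.25). All of these but Pfkfb3 rose in OE_CM and fell in TGF_KD_CM. The negative differences were led by Aldoc (-1.12 ± 0.090) and Ndrg1 (-0.94 ± 0.085), of which Ndrg1 fell in OE_CM and rose in TGF_KD_CM. Adm and Eno2 fell in both, by more in OE_CM (difference -0.54 ± 0.096 and -0.61 ± 0.12). Pfkm fell in both, with a difference of -0.0054 ± 0.068 (adjusted p = 0.955), and Hif1a rose in both (difference -0.0032 ± 0.036). With upper-quartile factors the difference of Pfkp was lost (adjusted p = 0.115) and those of Pfkl (adjusted p = 0.044) and Pgk1 (adjusted p = 0.0155) passed; that of Ankrd37 passed without TGF_KD_CM replicate 3 (adjusted p = 0.0454). TGF-beta1 was present only in the TGF_KD_CM comparison, and the comparisons belong to different parts of the study. The difference therefore covers TGF-beta1 and the part of the study as well as the direction of the microRNA.

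**Figure D5:**
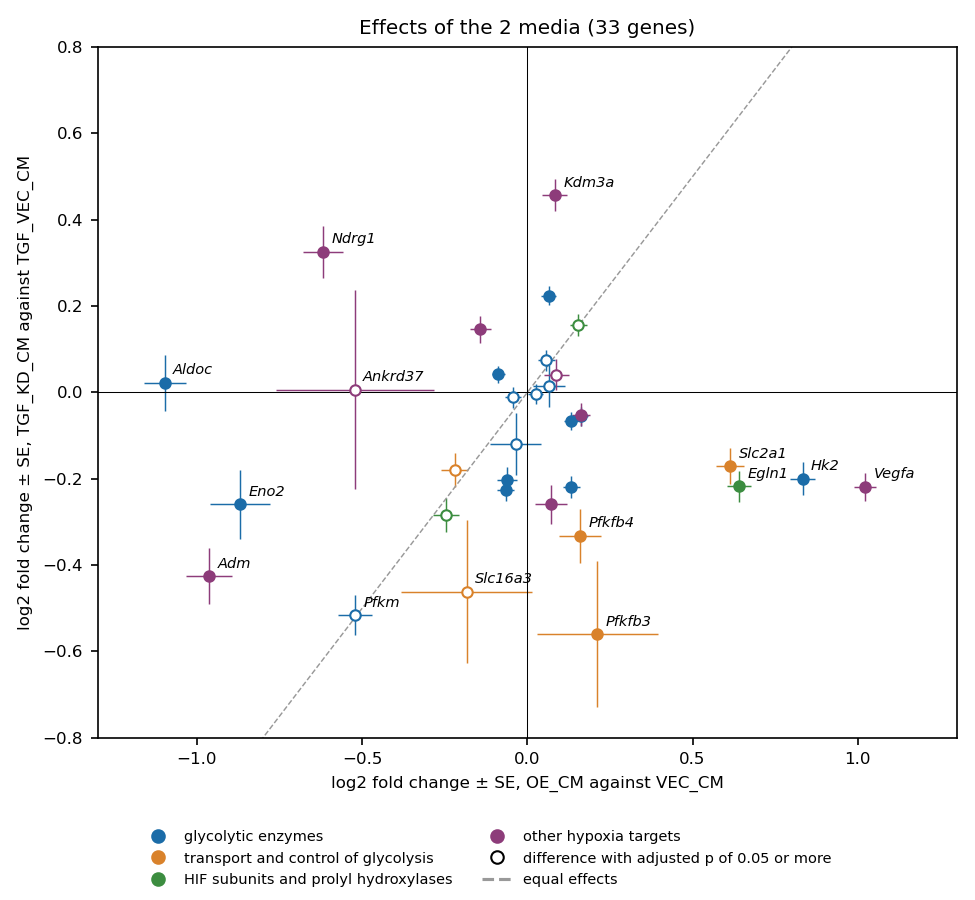
Log2 fold change with standard error of 33 members in OE_CM against VEC_CM (x axis) and in TGF_KD_CM against TGF_VEC_CM (y axis), colored by role; open points had a difference with an adjusted p of 0.05 or more, and the dashed line marks equal effects. Vegfa, Hk2, Egln1 and Slc2a1 lie to the lower right, Ndrg1 to the upper left and Pfkm on the line.

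Genes of the same pathways outside the list of 34 went both ways. Of 28 other glycolysis genes, 21 were tested; 5 rose and 8 fell in OE_CM, 2 and 7 in TGF_KD_CM, and 10 and 8 in TGF_VEC_CM. The share called was 61.9%, 42.9% and 85.7%, against 54%, 43.3% and 58.3% of all genes, so that in TGF_KD_CM it was at the background. Slc16a1, the lactate carrier MCT1, rose 1.38-fold in OE_CM (179 ± 3.01 CPM in OE_CM and 129.8 ± 1.41 in VEC_CM), and Ldhb, the lactate dehydrogenase subunit of oxidative tissues, was 1.78 times lower. Eno3, the muscle enolase, rose 1.44-fold in OE_CM and 1.51-fold in TGF_VEC_CM, and was 1.18 times lower in TGF_KD_CM. Pdk4, another kinase of pyruvate dehydrogenase, rose 2.15-fold in TGF_VEC_CM, while Pdhb, a subunit of that dehydrogenase, was 1.46 times lower there and 1.25-fold higher in TGF_KD_CM.

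Of 50 other hypoxia genes, 43 were tested; 16 rose and 13 fell in OE_CM, 11 and 8 in TGF_KD_CM, and 18 and 9 in TGF_VEC_CM. The share called was 67.4%, 44.2% and 62.8%, near the background of 43.3% in TGF_KD_CM and of 58.3% in TGF_VEC_CM. Their median fold changes in this order were 0.0285, 0.032 and 0.11 on the log2 scale. Ddit4, an inhibitor of mTOR signaling, averaged 59.4 ± 0.872 CPM in OE_CM, 32.7 ± 3.51 in TGF_KD_CM, 38.4 ± 1.97 in TGF_VEC_CM and 16.5 ± 1.22 in VEC_CM, 3.59-fold higher in OE_CM and 2.32-fold higher in TGF_VEC_CM than in VEC_CM. Plod2, a collagen lysyl hydroxylase, averaged 195 ± 1.83 CPM in OE_CM, 181 ± 4.82 in TGF_KD_CM, 218 ± 7.67 in TGF_VEC_CM and 132 ± 3.69 in VEC_CM, with log2 fold changes of 0.56 ± 0.030, -0.27 ± 0.029 and 0.72 ± 0.030 in OE_CM, TGF_KD_CM and TGF_VEC_CM. Loxl2, which crosslinks collagen, rose 2.06-fold in OE_CM and 3.63-fold in TGF_VEC_CM, and was 1.36 times lower in TGF_KD_CM. Errfi1, an inhibitor of the EGF receptor, rose 1.89-fold in OE_CM, and Gys1, the glycogen synthase, 1.27-fold in TGF_KD_CM. Ccng2, a cyclin that slows the cell cycle, was 1.71 times lower in OE_CM than in VEC_CM and rose 1.79-fold in TGF_KD_CM.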

How the data were processed

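Total RNA (1.3 µg, SMARTER mRNA-Seq kit, per the labels' protocols) was sequenced from 12 libraries, 3 in each of 4 groups named by the sample titles. The authors deposited whole read counts per gene and FPKM values for each library; build GRCm38 and mm10 are named per the submitters' processing notes, and the aligner, the counting tool and its use of strand stay unstated. The deposited FPKM equalled the count divided by the column total and 1 length per gene, within 0.01% for all 22503 genes that could be checked.

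Counts were tested with edgeR 4.0.16 (R 4.3.3): TMM factors, filterByExpr (14400 of 24619 genes kept), robust quasi-likelihood fit on all 12 libraries, Benjamini-Hochberg adjustment over all genes, threshold 0.05. All p-values in the text come from this fit or from an alternative named beside them: upper-quartile or DESeq2 factors, DESeq2 1.42.0, limma 3.58.1 on log2(FPKM + 1) or + 0.1 for genes with a mean FPKM of at least 1, other filters, only the groups compared, a test against 1.2-fold, and each library left out. The steps were tested on simulated data. Library totals ran from 33379207 to 37226153 counts. Values of every library are given for 4 regulators, the isozyme pairs and, in each comparison, the 5 largest called rises and falls; outside the 34 genes, the 4 called genes of each list with the lowest adjusted p were eligible. Members and lists were chosen with earlier results of these data known. Replicate numbers were not taken to pair the libraries (correlations of same-numbered deviations from -0.0372 to 0.0436). Still, 10 of 12 libraries correlated best with one of their own number. Promoters are the RefSeq windows of GRCm38.p6, and shared sequence was counted over 50-base stretches of GENCODE M21 transcripts.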

Additional observations from a re-analysis of the deposited data

Results flagged for a closer look

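For 21 members the effect of OE_CM over VEC_CM differed from that of TGF_KD_CM over TGF_VEC_CM (edgeR interaction contrast, adjusted p below 0.05; background 52.5% of all genes). The differences are given on the log2 scale, OE_CM effect minus TGF_KD_CM effect. Among genes of transport and control it was 0.7853 for Slc2a1, 0.7714 for Pfkfb3 and 0.4915 for Pfkfb4, all from a rise or no call in OE_CM beside a fall in TGF_KD_CM. The difference was 0.858 for Egln1, the oxygen sensor. Of the enzymes before the trioses, Hk2 differed by 1.0326, Hk1 by 0.1591, Pfkp by 0.141 and Aldoc by -1.1194. Of those after them, the values were -0.1592 for Tpi1, 0.3528 for Pgam1, 0.1986 for Eno1, -0.6105 for Eno2, -0.13 for Pkm and 0.2185 for Ldha. Vegfa had the largest difference among the other targets, 1.2404, and the values of P4ha1 and P4ha2, the collagen hydroxylases, were 0.2144 and 0.3301. Ndrg1 differed by -0.9446, Adm by -0.5376, Kdm3a by -0.3742 and Bnip3l by -0.2879. TGF-beta1 was present only in the TGF_KD_CM comparison, which also belongs to another part of the study. In these differences TGF-beta1, the part of the study and the medium cannot be told apart.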

How the results depend on the processing

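The counts depended mostly on how small a change was allowed and, in OE_CM, on the scaling. In the test against 1.2-fold, OE_CM had 4 members higher and 5 lower (main 13 and 10), TGF_KD_CM 1 and 2 (main 6 and 18), and TGF_VEC_CM 14 and 2 (main 23 and 5), the difference between the media held for 12 members (main 21), and the genes called fell to 3078, 1507 and 3575 (main 7778, 6229 and 8396). In OE_CM 7 members were higher with upper-quartile factors, 7 with limma on log2(FPKM + 1) and 7 on log2(FPKM + 0.1). Upper-quartile factors moved the median log2 fold change of all genes in OE_CM to -0.095, from -0.0081. They turned Gpi1 to -0.0623, Pfkl to -0.0293 and Tpi1 to -0.0224 in OE_CM, and limma turned Pfkl to -0.0183 and -0.0184 and Tpi1 to -0.0114 and -0.0115 with pseudocounts of 1 and 0.1; the cause was not tested. Leaving out each library gave 10 to 14 members higher and 9 to 11 lower in OE_CM, 5 to 6 and 17 to 20 in TGF_KD_CM, 22 to 23 and 5 to 5 in TGF_VEC_CM, and 21 to 22 for the difference, with 7176 to 7821, 5576 to 6308 and 7810 to 8527 genes called. The correlations of same-numbered libraries were small (from -0.0372 to 0.0436), and the libraries were not paired by number. With the replicate block, 14 members were higher and 10 lower in OE_CM, 7 were higher in TGF_KD_CM, and 7894 genes were called in OE_CM; Kdm3a in OE_CM (adjusted p = 0.0406) and Pkm in TGF_KD_CM (adjusted p = 0.0496) were gained. In all, 10 of 12 libraries correlated best with one of their own number, a hint from the data and not from the design. The fit on only the groups compared gives no value for the difference between the media. Depth limited Epas1, at 0 to 6 counts a library, and left Slc16a3, Pfkfb3 and Ankrd37 with the widest errors of the members.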

Other observations

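The pentose phosphate pathway, which branches from glycolysis after hexokinase and yields NADPH and ribose, was listed with 8 genes, all of them tested. In TGF_VEC_CM against VEC_CM 2 rose and 5 fell, with a median log2 fold change of -0.30; 5 rose and 2 fell in OE_CM, and 4 rose and 1 fell in TGF_KD_CM. The share called was 87.5%, 87.5% and 62.5%, against 58.3%, 54% and 43.3% of all genes. Pgd, an NADPH-producing dehydrogenase of the pathway, averaged 209 ± 2.93 CPM in OE_CM, 156 ± 3.03 in TGF_KD_CM, 125 ± 1.29 in TGF_VEC_CM and 194 ± 7.41 in VEC_CM (SD, n = 3). It was 1.55 times lower in TGF_VEC_CM than in VEC_CM (log2 -0.63 ± 0.030, edgeR adjusted p = 1.23e-28) and 1.25-fold higher in TGF_KD_CM than in TGF_VEC_CM. Rpia, which makes ribose phosphate, and Tkt, the transketolase, were 1.63 and 1.39 times lower in TGF_VEC_CM. Taldo1, the transaldolase, rose 1.26-fold there and was 1.21 times lower in TGF_KD_CM.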
